A study of Drosophila melanogaster with 6 samples.

Results

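The contrast described here set whole larvae that expressed a histone acetyltransferase-defective Tip60 transgene, dTIP60E431Q, against larvae that expressed the wild-type transgene, dTIP60WT. It covered 4 of the 6 arrays of the series, 2 with dTIP60E431Q and 2 with dTIP60WT, chosen by the genotype in their labels, and all 18769 probe sets of the Affymetrix Drosophila Genome 2.0 array that are not manufacturer's controls. The dTIP60E431Q larvae came from mothers with a GAL4-inducible pUAST transgene that carries the E431Q substitution in the acetyltransferase domain. The dTIP60WT larvae came from mothers with the same construct without the substitution, and the other 2 arrays, labelled Control, from w1118 mothers without a transgene. Fathers of all 3 genotypes carried the 337-GAL4 driver, which the study describes as ubiquitous from late embryonic life onward, so every larva also carried the driver and its own endogenous Tip60. All larvae were kept for 3 days at 25°C after embryo collections of 3 hours. Each array measured RNA of 1 pool of 35 whole larvae, so the duplicates are separate pools of the same cross, and p-values measure the spread between such pools. The study used 1 insertion line of each transgene for the arrays (line B of both), with the dTIP60E431Q insertions on the third chromosome and the dTIP60WT insertions on the second, so effects of insertion site and of transgene type cannot be told apart.

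Tip60 is the catalytic subunit of a large chromatin complex and belongs to the MYST family of acetyltransferases. It acetylates histone H4 and other proteins, and its complex also exchanges histone variants at promoters and sites of DNA damage. The acetyltransferase domain binds acetyl coenzyme A, and the substituted glutamate lies in its catalytic centre. Since both genotypes overexpress a Tip60 protein, the comparison of dTIP60E431Q with dTIP60WT asks what differs between them when the extra protein lacks an intact catalytic centre.

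Larvae with dTIP60E431Q had much lower transcripts of the fat body genes Lsp2 and Fbp2 than larvae with dTIP60WT. Most listed genes that serve mitochondria and the secretory pathway were lower as well. They had higher transcripts of many cuticle, tanning, detoxification, antimicrobial, autophagy and synaptic genes. Cytosolic ribosomal protein genes and markers of hemocytes did not pass the test in either direction. A probe set counted as called at a fold of 2 or more with limma's p below 0.05 after Benjamini-Hochberg adjustment across the 18769 probe sets. By this measure 2783 probe sets were called, 14.8% of those tested, of which 1648 were higher (8.78%) and 1135 lower (6.05%) in dTIP60E431Q larvae. The called probe sets that were higher had a median log2 difference of 1.67 and a median intensity of 272 in dTIP60E431Q, against 68.3 in dTIP60WT. Those that were lower had a median log2 difference of -1.44 and a median intensity of 149 in dTIP60E431Q, against 430 in dTIP60WT. Without regard to any test, both dTIP60E431Q values lay above both dTIP60WT values in 32.7% of probe sets and below both in 30.9%. By at least 16-fold 140 called probe sets were higher and 22 lower. Without dTIP60WT replicate 1 the calls numbered 661, without dTIP60WT replicate 2 they numbered 883, and without dTIP60E431Q replicate 1 or 2 they numbered 1844 or 1766. Each of those fits kept 2 residual degrees of freedom, and the lone array was assumed to vary like the other genotypes.

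**Figure D1:**
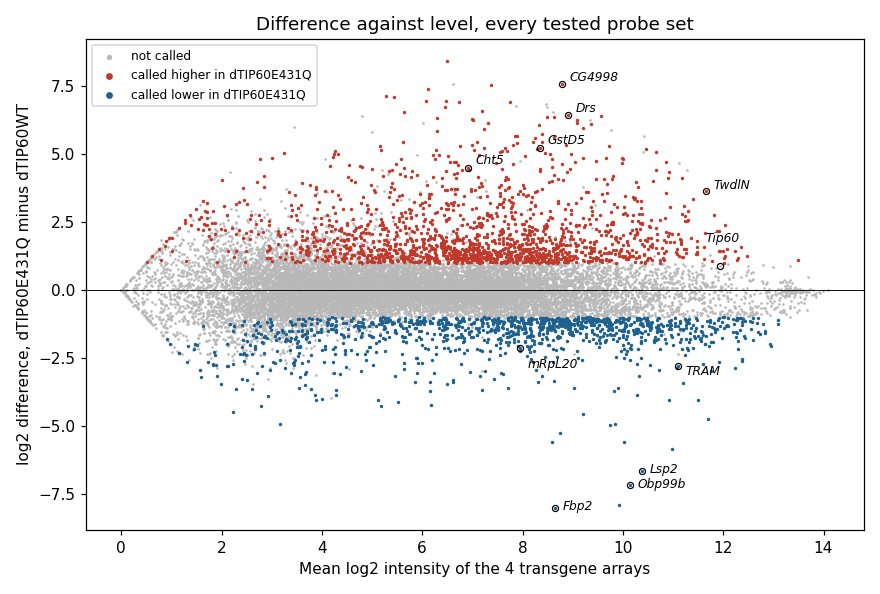
Log2 difference, dTIP60E431Q minus dTIP60WT (vertical axis), against the mean log2 intensity of the 4 transgene arrays (horizontal axis) for the 18769 tested probe sets. Red points are the 1648 probe sets called higher and blue points the 1135 called lower in dTIP60E431Q, and circled genes are described in the text.

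Pearson's r of log2 intensity across probe sets was 0.967 between the dTIP60E431Q arrays, 0.964 between the dTIP60WT arrays and 0.904 to 0.905 between arrays of the 2 genotypes. The array medians were 51.5 and 51.9 for dTIP60E431Q and 43.8 and 45.2 for dTIP60WT, although the median log2 difference over all probe sets was 0.01. Scaling the arrays to 1 median moved that difference to -0.20 and turned the split of calls to 1237 higher and 1784 lower, so differences below are relative to the deposited normalization, in which the median probe set did not move. Some control probe sets for RNA quality separated the genotypes. The 18S ribosomal RNA probe set nearest the 3′ end had intensities of 4256 and 4105 in dTIP60E431Q, against 1566.5 and 1489.6 in dTIP60WT. Ratios of 3′ to 5′ signal for the actin control were 4.08 and 4.34 in dTIP60E431Q, against 4.63 and 4.57 in dTIP60WT, and for eIF-4a 3.70 and 3.33 in dTIP60E431Q, against 4.54 and 4.02 in dTIP60WT, without overlap in either. For GAPDH the ratios overlapped, at 1.68 and 1.61 in dTIP60E431Q, against 1.69 and 1.59 in dTIP60WT, but its level was lower along the whole transcript. The 3′ probe set had 3292 and 3447 in dTIP60E431Q, against 9767 and 9680.4 in dTIP60WT. The middle set had 1935 and 2127, against 6901 and 6971, and the 5′ set 1958.5 and 2136, against 5787 and 6077, in the same order. The part of RNA quality in the differences was not tested. By the study's text these larvae were at the second instar. Among the tissue markers measured, apolpp (fat body), Jon65Aiv (midgut) and Mlc1 (muscle) were bright on every array, with a lowest value of 9539, for apolpp. Other fat body and midgut markers were dimmer in places. Lsp2 had 140 and 130 and Fbp1 3.32 and 6.42 in dTIP60E431Q. In dTIP60WT, alphaTry had 389 and 447 and Mal-A1 1035 and 1066. Lsp2 and Fbp2, which rise at the third instar in wild-type flies, were bright in dTIP60WT, as given below.

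The Tip60 transcript checked the transgene labels against the Control label, but it could not check which of the transgenes an array carried. Tip60 had 5172 and 5464 in dTIP60E431Q, against 3044 and 2754 in dTIP60WT, and 30.8 and 29.2 in the Control pools without a transgene. Both transgenes were thus far above the Control level, and the dTIP60E431Q pools stood above the dTIP60WT pools (log2 difference 0.88, SE 0.125, adjusted p = 0.0142), under the 2-fold mark, which it passed with quantile normalization (1.10), while median scaling gave 0.66, so that transgene level and transgene sequence cannot be told apart. The call rested on each of the 4 arrays: without any 1 of them the difference was 0.80 to 0.95 and the adjusted p 0.056 to 0.0759. RpL32, a ribosomal protein gene often used as a loading control, had 9653 and 9726 in dTIP60E431Q, against 10379 and 9979 in dTIP60WT (log2 difference -0.07, SE 0.112, adjusted p = 0.7). Of the 12 measured genes of the Tip60 complex list, which includes Tip60 itself, 2 passed higher and 2 lower at adjusted p below 0.05, against backgrounds of 14.7% higher and 14.2% lower over all 11982 genes. pont, an ATPase of the complex, had 223 and 202 in dTIP60E431Q, against 358 and 361 in dTIP60WT (log2 difference -0.76, SE 0.126, adjusted p = 0.0197), and rept, its partner ATPase, had 608 and 632 in dTIP60E431Q, against 417 and 404 in dTIP60WT (log2 difference 0.60, SE 0.113, adjusted p = 0.0273). The subunit gene MrgBP was lower, at -0.56. None of these 3 reached 2-fold, and none passed without any 1 transgene array (adjusted p of 0.0578 to 0.0930 for pont, 0.0803 to 0.117 for rept and 0.0904 to 0.121 for MrgBP). Median scaling left rept at 0.38 (adjusted p = 0.0930).

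Chromatin genes outside the complex passed in both directions. Among 21 other acetyltransferase and deacetylase genes, 1 passed higher and 2 lower, and the median difference was 0.20, or -0.02 with median scaling. Ada2b, an adaptor of the SAGA acetyltransferase complex, had 211 and 238 in dTIP60E431Q, against 109 and 86.8 in dTIP60WT (log2 difference 1.2, SE 0.167, adjusted p = 0.0135). HDAC1, a deacetylase, and Sirt4, a mitochondrial sirtuin, were lower, at -0.73 and -0.70. Of 25 Polycomb and trithorax group genes 2 passed higher and 4 lower, against 14.7% and 14.2% over all genes, and median scaling gave 2 and 8. Pc, which encodes the chromodomain subunit of Polycomb repressive complex 1, had 146 and 98.3 in dTIP60E431Q, against 39.1 and 32.8 in dTIP60WT (log2 difference 1.74, SE 0.364, adjusted p = 0.0344), and both of its dTIP60E431Q values lay above both dTIP60WT values. The trithorax methyltransferase gene trx was higher by 0.97, and the GAGA factor gene Trl lower, at -0.64. The 4 measured Hox genes (Dfd, Scr, Antp and pb) did not pass, with differences from -1.14 to 0.45, of which 1 had an unadjusted p below 0.05. Of these 6 passing genes 1 and 0 passed without dTIP60E431Q replicate 1 and 2, and 0 and 0 without dTIP60WT replicate 1 and 2.

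The deepest falls among the named genes were in 3 genes of the list for larval serum and storage in the fat body. This larval organ stores nutrients and secretes most haemolymph proteins. Lsp2, a hexamerin that larvae store for metamorphosis, had 140 and 130 in dTIP60E431Q, against 13420.1 and 13157 in dTIP60WT, and 15146 and 13517 in Control pools (log2 difference -6.62, SE 0.127, adjusted p = 0.00225). Fbp2, a fat body protein related to alcohol dehydrogenase, had 25.6 and 24.9 in dTIP60E431Q, against 6784 and 5994 in dTIP60WT (log2 difference -7.98, SE 0.3, adjusted p = 0.00471). Obp99b, named for its odorant-binding fold, had 72.3 and 125 in dTIP60E431Q, against 13008 and 14007 in dTIP60WT (log2 difference -7.15, SE 0.305, adjusted p = 0.00506). In all 3 genes both dTIP60WT arrays were among the bright ones of the whole array and the dTIP60E431Q arrays were not, with no overlap. The clotting protein gene fon was lower, at -0.80. Of 8 measured genes of this list, which includes fon and Obp99b, 4 passed lower and none higher, against 14.2% and 14.7% over all genes. The list's median was -2.37, or -3.68 without dTIP60WT replicate 1 and -0.66 without replicate 2. For apolpp, the lipophorin precursor, the difference was -0.43 and did not pass (adjusted p = 0.0937). In RNA from whole larvae, fewer cells of a type and less RNA per cell cannot be told apart. The study reports that dTIP60E431Q line B mostly died late in the second instar, while dTIP60WT flies looked normal. The larvae were matched by age, and a difference in developmental stage between the genotypes was not tested. Of these 4 falls, 3 and 3 passed without dTIP60E431Q replicate 1 and 2, and 3 and 3 without dTIP60WT replicate 1 and 2.

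**Figure D2:**
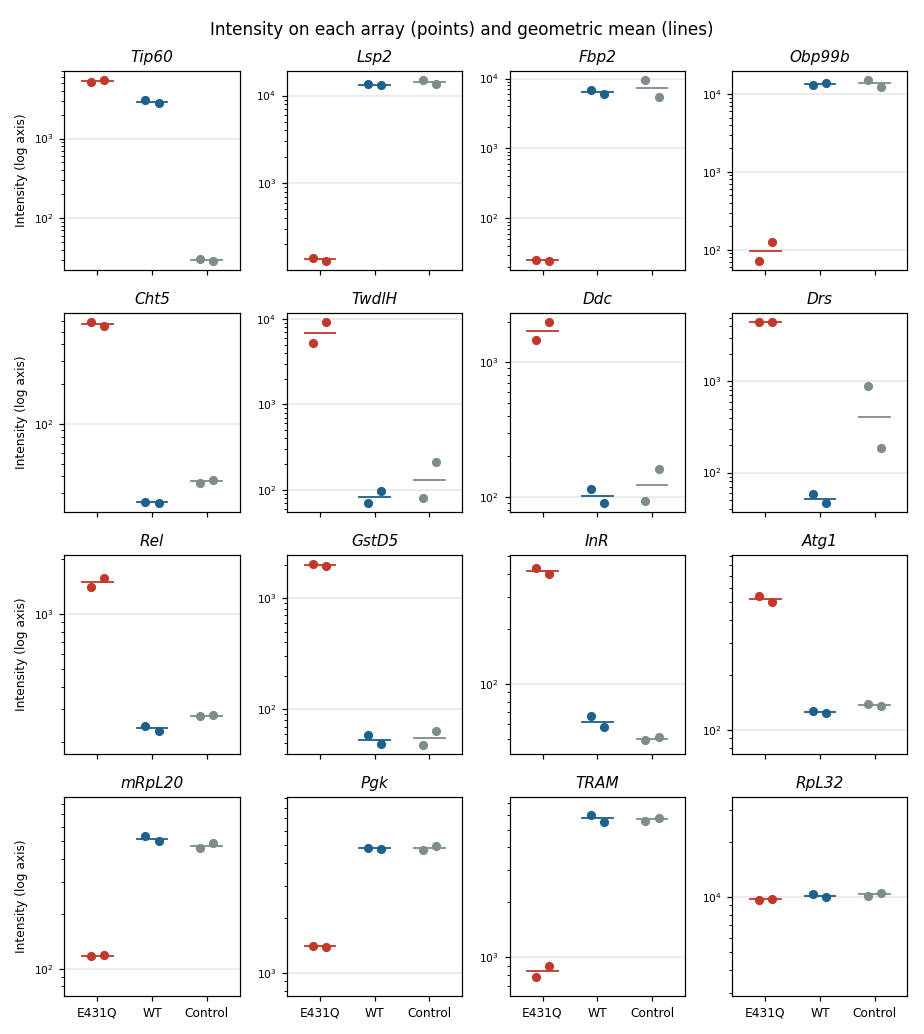
Intensity (log axis) of 16 genes on each of the 6 arrays, with dTIP60E431Q left of dTIP60WT and Control at the right of each panel; points are arrays and short lines geometric means of 2. The dTIP60E431Q pools lay at 130 to 140 for Lsp2 and the dTIP60WT pools at 13157 to 13420.1, while for RpL32 all 6 arrays lay between 9653 and 10518.

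Several genes without an assigned name fell almost as far. CG32071 had 66.3 and 47.3 in dTIP60E431Q, against 2589.8 and 2680.4 in dTIP60WT (log2 difference -5.56, SE 0.205, adjusted p = 0.00471). CG12522 and CG32073, which form a run of neighbouring measured genes with it on 3L, were lower, at -5.24 and -4.96. CG15353 was among the brightest genes of dTIP60WT larvae and had 529 and 980 in dTIP60E431Q, against 12049 and 11412 in dTIP60WT (log2 difference -4.03, SE 0.323, adjusted p = 0.00581). CG34278 and CG9259 were lower, at -4.91 and -4.54, each with close duplicates in both genotypes. CG30288 and the bright CG32603 were lower, at -4.23 and -1.62. Chsy, a chondroitin sulfate synthase, had 10.4 and 6.52 in dTIP60E431Q, against 153 and 162 in dTIP60WT (log2 difference -4.25, SE 0.255, adjusted p = 0.00506). pip, a sulfotransferase known for its part in the dorsoventral axis of the embryo, had 28.5 and 26.5 in dTIP60E431Q, against 306 and 287 in dTIP60WT (log2 difference -3.43, SE 0.12, adjusted p = 0.00435). No dTIP60E431Q value of these genes reached the lower dTIP60WT value. Without dTIP60WT replicate 1 8 of these 10 genes passed and without replicate 2 9, against 10 and 10 without dTIP60E431Q replicate 1 and 2.

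The cuticle, the chitin and protein layer that larvae secrete anew at each moult, gave many rises. Of 79 measured cuticle protein genes 35 passed higher and 12 lower, with the median at 0.87. Cpr23B had 750 and 1088 in dTIP60E431Q, against 10.4 and 6.94 in dTIP60WT (log2 difference 6.73, SE 1.22, adjusted p = 0.0248), and Cpr64Ad reached 9016 and 9762 in dTIP60E431Q, against 205 and 378 in dTIP60WT (log2 difference 5.08, SE 0.903, adjusted p = 0.0236). The Control pools for Cpr64Ad, at 393 and 2244, were further apart than those of dTIP60WT. Cpr76Ba was higher by 4.10. The falls named here had unlike levels in dTIP60WT, from Cpr47Ec at 11716.5 and 10862.9 to Acp65Aa at 200 and 176. Lcp9 had 1295 and 1196 in dTIP60E431Q, against 9678 and 9614 in dTIP60WT (log2 difference -2.95, SE 0.123, adjusted p = 0.00505), while Cpr78E, Acp65Aa and Cpr47Ec were lower, at -3.15, -3.37 and -1.53. The list passed with 10 higher and 4 lower without dTIP60WT replicate 1 and 11 higher and 5 lower without replicate 2. Without dTIP60E431Q replicate 1 and 2 the counts were 14 higher and 6 lower and 13 higher and 7 lower.

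Tweedle genes encode a fly family of cuticle proteins, and Osiris genes encode a clustered family expressed in cuticle-secreting epithelia. Of 48 such genes 18 passed higher and 1 lower, with the median at 2.6. TwdlH had 5173 and 9207 in dTIP60E431Q, against 70.9 and 98 in dTIP60WT (log2 difference 6.37, SE 0.584, adjusted p = 0.00669), and TwdlN had 11250.1 and 11437 in dTIP60E431Q, against 761 and 1113 in dTIP60WT (log2 difference 3.62, SE 0.448, adjusted p = 0.0108). The 1 lower member, TwdlO, had 2965 and 2762 in dTIP60E431Q, against 8850.0 and 7989 in dTIP60WT (log2 difference -1.56, SE 0.147, adjusted p = 0.00681). Split by family, which was done after the values were seen, 14 of 25 Tweedle genes were higher and 1 lower with a median of 4.03, and 4 of 23 Osiris genes were higher and none lower with a median of 0.23. Osi2 was the Osiris gene with the smallest p and had 956 and 1429 in dTIP60E431Q, against 18.4 and 20.9 in dTIP60WT (log2 difference 5.90, SE 0.7, adjusted p = 0.00996). Size did not secure a pass, since TwdlW, named after its values were seen, had the largest difference of the list at 7.57 with values of 2469.6 and 744 in dTIP60E431Q and 5.67 and 8.98 in dTIP60WT, and an adjusted p of 0.0517. The number of passing members hung on the dTIP60WT arrays: 0 passed higher without dTIP60WT replicate 1 and 1 without replicate 2, with medians of 2.92 and 2.62. Without dTIP60E431Q replicate 1 and 2, 4 and 10 passed higher, with medians of 1.75 and 3.70.

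Several genes that build and remodel chitin, or tan and colour the new cuticle, were also higher. Of 42 chitin genes 14 passed higher and 0 lower, and 5 and 6 passed higher without dTIP60WT replicate 1 and 2, while median scaling gave 10 higher and 3 lower. Cht5, a chitinase of the moulting fluid in other insects, had 592 and 553 in dTIP60E431Q, against 25.6 and 25.3 in dTIP60WT (log2 difference 4.49, SE 0.118, adjusted p = 0.00417) and kept both genotypes tight. obst-H, a chitin-binding protein gene, Idgf1, a chitinase-like growth factor gene, and Cda5, a chitin deacetylase gene, were higher by 2.06, 1.86 and 1.84. Of 28 tanning and amine genes 10 passed higher and 1 lower, and 3 passed higher without either dTIP60WT array. Ddc, the decarboxylase that makes dopamine, had 1463 and 1989.7 in dTIP60E431Q, against 114 and 90.5 in dTIP60WT (log2 difference 4.07, SE 0.346, adjusted p = 0.00623). e (ebony), which joins dopamine to beta-alanine for light cuticle, had 135 and 135 in dTIP60E431Q, against 20.2 and 17.2 in dTIP60WT (log2 difference 2.85, SE 0.144, adjusted p = 0.00506). The pigmentation gene y (yellow), named after its values were seen, had 1027 and 1965 in dTIP60E431Q, against 34.4 and 36.4 in dTIP60WT (log2 difference 5.33, SE 0.693, adjusted p = 0.0119), and yellow-b and the tyrosine decarboxylase gene Tdc1 were higher by 2.39 and 3.52. The 1 lower gene was yellow-e, at -1.43.

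Genes of the mitochondrion, which makes most of the cell's ATP by respiration and carries its own ribosomes, were mostly lower. Of 69 mitochondrial ribosomal protein genes 56 passed lower and none higher, with a median of -1.05 against 0.02 over all genes. mRpL20 had 117 and 119 in dTIP60E431Q, against 530 and 498 in dTIP60WT (log2 difference -2.12, SE 0.118, adjusted p = 0.00506), and mRpS33 had 206 and 186 in dTIP60E431Q, against 634 and 638 in dTIP60WT (log2 difference -1.70, SE 0.126, adjusted p = 0.00569). mRpS18A and mRpL54 were lower, at -1.69 and -1.49. Of 76 oxidative phosphorylation genes 57 passed lower and none higher, with a median of -1.02. UQCR-6.4, a small subunit of complex III, had 1662 and 1503 in dTIP60E431Q, against 5855 and 5585 in dTIP60WT (log2 difference -1.85, SE 0.122, adjusted p = 0.00529). The complex I genes ND-13A, ND-15 and ND-B14.5B were lower, at -1.71, -1.62 and -1.65. By complex, sorted after the values were seen, 28 of 32 genes named for complex I, 9 of 16 of complex IV and 11 of 16 of the ATP synthase passed lower. Of 18 paralogs of subunit genes, whose symbols add L, L1 or L2 to that of the subunit, 1 passed lower (ND-51L2, at -0.74) and none higher, with a median of 0.24. Import genes followed, with 12 of 18 lower and none higher. Tim8, a chaperone of the space between the membranes, had 484 and 451 in dTIP60E431Q, against 1448 and 1450.5 in dTIP60WT (log2 difference -1.63, SE 0.116, adjusted p = 0.00549), and Roe1, a co-chaperone of the matrix, Tim9a and Tom7 were lower, at -1.50, -1.31 and -1.09. The medians of the ribosomal and phosphorylation lists stayed between -1.07 and -0.96 without any 1 transgene array, while the counts that passed lower were 6 and 11 without dTIP60WT replicate 1 and 11 and 17 without replicate 2. Of the import genes 1 and 2 passed lower without dTIP60WT replicate 1 and 2, and 5 without either dTIP60E431Q array.

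Most listed genes of central carbon metabolism were lower as well. Of 13 glycolysis genes 9 passed lower and 1 higher, with a median of -0.85. Pgk, phosphoglycerate kinase, had 1411 and 1385 in dTIP60E431Q, against 4824 and 4782 in dTIP60WT (log2 difference -1.78, SE 0.113, adjusted p = 0.00512), and Pglym78, a phosphoglycerate mutase, and Pgi, glucose phosphate isomerase, were lower, at -1.72 and -1.68. Tpi, triose phosphate isomerase, was lower, at -0.93. The 1 higher gene, the hexokinase gene Hex-A, had 529 and 526 in dTIP60E431Q, against 355 and 286 in dTIP60WT (log2 difference 0.73, SE 0.172, adjusted p = 0.047). Of 15 tricarboxylic acid cycle genes 10 passed lower and 1 higher, with a median of -0.89. Idh3g, a subunit of isocitrate dehydrogenase, had 641 and 612 in dTIP60E431Q, against 1697 and 1717 in dTIP60WT (log2 difference -1.45, SE 0.113, adjusted p = 0.00577), and ScsbetaG, Scsalpha1 and Mdh1 were lower, at -1.26, -1.06 and -1.01. The higher member was Pepck1, which encodes the enzyme that opens gluconeogenesis, with 7227 and 6151 in dTIP60E431Q, against 2363 and 2589.6 in dTIP60WT (log2 difference 1.43, SE 0.208, adjusted p = 0.0148). Hex-A and Pepck1 were named after their values were seen. Fatty acid oxidation had the same shape, with 9 of 11 genes lower and 1 higher. Echs1, scu and the carnitine carrier gene colt were lower, at -1.56, -1.63 and -1.52. The higher one, whd, encodes the carnitine palmitoyltransferase of the outer membrane and had 1679.8 and 1879.6 in dTIP60E431Q, against 476 and 465 in dTIP60WT (log2 difference 1.92, SE 0.123, adjusted p = 0.00516). Without either dTIP60WT array 3 glycolysis, 1 cycle and 2 oxidation genes passed lower. Without dTIP60E431Q replicate 1 and 2 the counts were 6 and 5, 4 and 6, and 5 and 6, while Hex-A and Pepck1 passed in none of these fits and whd in all 4, and Hex-A did not pass with median scaling (0.51) or quantile normalization (0.63).

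**Figure D3:**
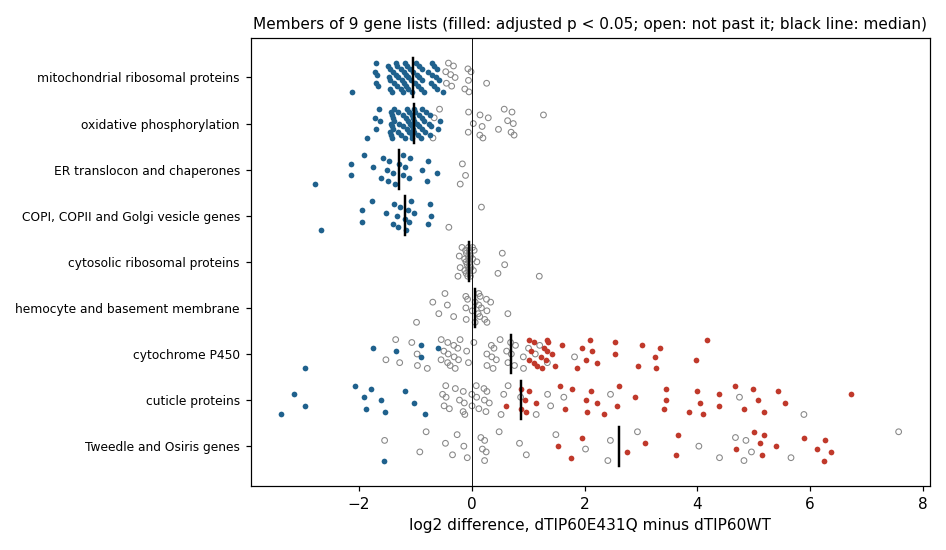
Log2 difference, dTIP60E431Q minus dTIP60WT (horizontal axis), of each member of 9 gene lists (rows); filled points had adjusted p below 0.05, open points did not, and black lines are medians. Mitochondrial and secretory lists had medians from -1.30 to -1.02, cytosolic ribosomal proteins -0.05, and Tweedle and Osiris genes 2.6.

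Genes of the secretory pathway, which moves proteins through the endoplasmic reticulum and Golgi, fell in nearly every member measured. Of 25 endoplasmic reticulum translocon and chaperone genes 22 passed lower and none higher, with a median of -1.30. TRAM, a membrane protein beside the translocation channel, had 777 and 901 in dTIP60E431Q, against 5982 and 5525 in dTIP60WT (log2 difference -2.78, SE 0.137, adjusted p = 0.00506). Sec61beta, a subunit of the channel, had 1776 and 1778 in dTIP60E431Q, against 6844 and 6543 in dTIP60WT (log2 difference -1.91, SE 0.112, adjusted p = 0.00506), and the signal peptidase genes Spase25 and Spase12 were lower, at -2.15 and -2.13. Of 21 coat and Golgi vesicle genes 19 passed lower and none higher, with a median of -1.19. zetaCOP, a subunit of the COPI coat, had 21.7 and 29.7 in dTIP60E431Q, against 170 and 154 in dTIP60WT (log2 difference -2.67, SE 0.197, adjusted p = 0.00569). The cargo receptor genes of the p24 family loj and CHOp24, and the Golgi SNARE gene Membrin, were lower, at -1.94, -1.52 and -1.78. Without dTIP60WT replicate 1, 9 translocon and 5 vesicle genes passed lower, without replicate 2 12 and 7, and the medians of the lists stayed between -1.37 and -1.12 without any 1 transgene array. Of the 27 genes of the vacuolar proton ATPase, a pump of other endomembranes, 2 passed higher and 1 lower, with a median of -0.06. Over all genes 14.7% passed higher and 14.2% lower. Vha36-3 and VhaAC45RP were higher by 0.83 and 0.71, and Vha14-1 lower, at -0.59, and VhaAC45RP did not pass with median scaling (0.50) or quantile normalization (0.53).

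Genes of cytosolic translation and protein turnover differed by list. None of 34 cytosolic ribosomal protein genes passed in either direction in limma, and their median was -0.05, with 30 of them within 0.25 of 0 on the log2 scale. The other 4 had higher values without passing, among them RpS19b at 1.2 and RpS10a at 0.58. Unadjusted limma p-values below 0.05 were found for 3 genes, all on the higher side, and for 4 genes in the methods' t-test, which called no probe set of the array once adjusted. With trend and robust options 3 passed higher and 3 lower, with the floor 4 lower, with the filter 3 higher, with the pseudocount 2 higher and with the replicate block 1 higher. The median was -0.27 with median scaling and 0.12 with quantile normalization. Of 30 aminoacyl-tRNA synthetase genes 12 passed lower and none higher, with a median of -0.42. ArgRS had 169 and 180 in dTIP60E431Q, against 498 and 439 in dTIP60WT (log2 difference -1.42, SE 0.131, adjusted p = 0.00676), and TrpRS-m, GlyRS and CysRS were lower, at -1.18, -0.95 and -0.87. Of 26 ribosome biogenesis genes 2 passed higher and 3 lower, against 14.7% and 14.2% over all genes. Among them Non3 was at -2.18 and Non1 at 1.23. Of 40 proteasome genes 21 passed lower and none higher, with a median of -0.61. Rpt2, an ATPase of the regulatory particle, had 298 and 315 in dTIP60E431Q, against 616 and 648 in dTIP60WT (log2 difference -1.04, SE 0.116, adjusted p = 0.00879), and Rpn12, Rpt4 and the deubiquitinase gene Rpn11 were lower, at -1.03, -0.91 and -0.92. Of 14 paralogs whose symbols add R or T, with or without a number, to that of a subunit, none passed (2 had an unadjusted limma p below 0.05) and the median was 0.00, a split made after the values were seen. None of the 40 proteasome genes passed without dTIP60WT replicate 1 or 2, and 2 and 6 passed lower without dTIP60E431Q replicate 1 and 2. The synthetase list passed with 0 and 1 lower without dTIP60WT replicate 1 and 2 and with 2 without either dTIP60E431Q array.

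**Figure D4:**
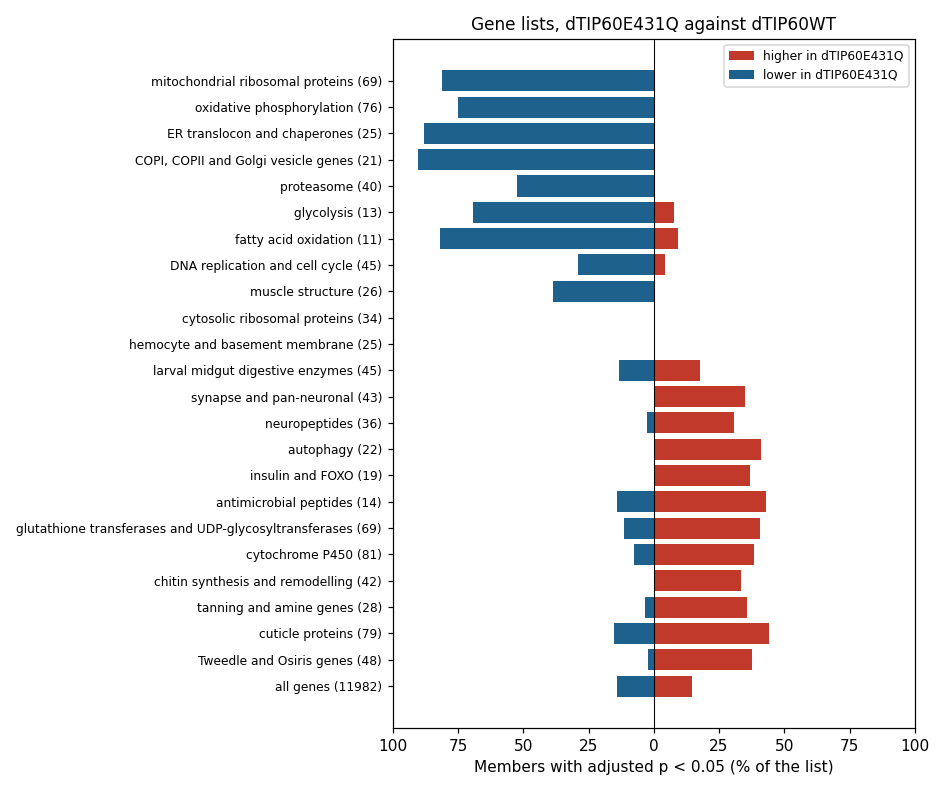
Share of each gene list (rows, with the number of genes measured) that had adjusted p below 0.05 and was lower (blue, to the left) or higher (red, to the right) in dTIP60E431Q than in dTIP60WT, in percent; the lowest row gives all genes. Over all genes 14.7% were higher and 14.2% lower, and none of the 34 cytosolic ribosomal protein genes or the 25 hemocyte genes passed.

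Detoxification genes, which oxidise, conjugate and clear foreign and internal compounds, were higher in large numbers. Of 81 cytochrome P450 genes 31 passed higher and 6 lower, with a median of 0.70. Cyp6a20 had 538 and 634 in dTIP60E431Q, against 33.2 and 32 in dTIP60WT (log2 difference 4.16, SE 0.141, adjusted p = 0.00421), Cyp4p1 had 2451 and 2455 in dTIP60E431Q, against 246 and 270 in dTIP60WT (log2 difference 3.25, SE 0.14, adjusted p = 0.00506), and Cyp12a5 and Cyp309a1 were higher by 3.27 and 2.94. All 4 genes had duplicates that were close in both genotypes. Of 69 glutathione transferase and UDP-glycosyltransferase genes 28 passed higher and 8 lower, with a median of 0.61. GstD5 had 2030.4 and 1939 in dTIP60E431Q, against 58.2 and 48.9 in dTIP60WT (log2 difference 5.22, SE 0.196, adjusted p = 0.00471), and GstD4 had 2673 and 2735 in dTIP60E431Q, against 267 and 347 in dTIP60WT (log2 difference 3.15, SE 0.169, adjusted p = 0.00506). Counted by class after the values were seen, 8 of 11 GstD genes were higher and none lower, while of 13 GstE genes 1 was higher and 2 lower. Ugt37A2 had 3889.5 and 3764 in dTIP60E431Q, against 185 and 239 in dTIP60WT (log2 difference 4.19, SE 0.199, adjusted p = 0.00506), and Ugt35C1 was higher by 3.45. In the absence of dTIP60WT replicate 1 and 2, 10 and 14 P450 genes and 12 and 12 transferase genes passed higher. Median scaling gave 27 P450 genes higher and 13 lower.

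Genes of the immune response rose in part. For some of those named here the dTIP60WT pools also lay below the Control pools. In the study, the genes lowered by dTIP60WT formed a single enriched cluster, for responses to bacteria. Of 14 antimicrobial peptide genes 6 passed higher and 2 lower, with a median of 1.03. Drs, the antifungal peptide drosomycin, had 4491 and 4423 in dTIP60E431Q, against 57.5 and 46.7 in dTIP60WT, and its Control pools lay between at 886 and 184 (log2 difference 6.43, SE 0.776, adjusted p = 0.0103). Drsl2, a drosomycin-like gene, had 634 and 403 in dTIP60E431Q, against 2.69 and 5.1 in dTIP60WT (log2 difference 7.09, SE 0.44, adjusted p = 0.0051), and its dTIP60WT values were near the bottom of the scale. AttD (attacin D) had 231 and 209 in dTIP60E431Q, against 6.43 and 12.4 in dTIP60WT (log2 difference 4.62, SE 0.399, adjusted p = 0.00623), and Drsl5 was higher by 1.69. Control pools had 90.3 and 58.5 for AttD, but 2.09 and 3.12 for Drsl2. Mtk (metchnikowin), named after its values were seen, had 358 and 772 in dTIP60E431Q, against 40.4 and 35.6 in dTIP60WT (log2 difference 3.79, SE 0.47, adjusted p = 0.0108), with Control pools at 221 and 377. The peptide gene BomS2, of the Bomanin family that the Toll pathway controls, had 726 and 286 in dTIP60E431Q, against 8.05 and 1.36 in dTIP60WT (log2 difference 7.10, SE 1.31, adjusted p = 0.0256), with Control pools at 17.9 and 108. The lower members were CecB and IM33, at -1.0 and -0.76. Of 30 recognition and signalling genes 10 passed higher and 5 lower, with a median of 0.12 that median scaling turned to -0.10. Rel, the NF-kappaB factor of the Imd pathway, had 1399.9 and 1578 in dTIP60E431Q, against 244 and 229 in dTIP60WT (log2 difference 2.65, SE 0.128, adjusted p = 0.00506), and Dif, a factor of the Toll pathway named after its values were seen, had 159 and 170 in dTIP60E431Q, against 53.6 and 78.4 in dTIP60WT (log2 difference 1.34, SE 0.218, adjusted p = 0.019). The Imd inhibitor genes PGRP-LF and PGRP-LB were higher by 3.68 and 1.27. psh, a protease upstream of Toll, had 69.4 and 66.3 in dTIP60E431Q, against 309 and 324 in dTIP60WT (log2 difference -2.22, SE 0.114, adjusted p = 0.00506). Without either dTIP60WT array 3 peptide genes passed higher and 0 lower, and of the signalling genes 3 passed higher and 1 lower without replicate 1 and 6 and 1 without replicate 2. Without dTIP60E431Q replicate 1 and 2, 5 and 4 peptide genes passed higher and 0 lower, and 5 and 5 signalling genes higher and 3 and 2 lower.

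Several genes of nutrient signalling, which matches growth to food, were higher. Of 19 insulin and FOXO genes 7 passed higher and none lower, with a median of 0.64. InR, the insulin receptor, had 429 and 397 in dTIP60E431Q, against 66.6 and 58 in dTIP60WT (log2 difference 2.73, SE 0.135, adjusted p = 0.00506). ImpL2, a secreted protein that binds insulin-like peptides, had 2646 and 2598 in dTIP60E431Q, against 743 and 741 in dTIP60WT (log2 difference 1.82, SE 0.125, adjusted p = 0.00539), and REPTOR, a factor held back by TORC1, and Sesn (sestrin) were higher by 1.88 and 1.17. Ilp8, a relaxin-like peptide that delays metamorphosis when discs are damaged, was named after its values were seen and had 85.3 and 81 in dTIP60E431Q, against 14.6 and 20.1 in dTIP60WT (log2 difference 2.28, SE 0.399, adjusted p = 0.0227). Of 22 autophagy genes 9 passed higher and none lower, with a median of 0.56. Atg1, the kinase that starts autophagy, had 543 and 499 in dTIP60E431Q, against 127 and 124 in dTIP60WT (log2 difference 2.06, SE 0.118, adjusted p = 0.00506), and ref(2)P, the p62-like cargo adaptor, had 2385 and 3037 in dTIP60E431Q, against 369 and 408 in dTIP60WT (log2 difference 2.79, SE 0.175, adjusted p = 0.0051). The Atg1 partner genes Atg17 and Atg101 were higher by 1.67 and 1.65. Of 16 cell death genes 5 passed higher and none lower, with a median of 0.20 that median scaling turned to -0.02. Dronc, the initiator caspase, had 171 and 150 in dTIP60E431Q, against 70.3 and 65.8 in dTIP60WT (log2 difference 1.24, SE 0.139, adjusted p = 0.00902), and the tumour necrosis factor receptor gene wgn, the Bcl-2 family gene Buffy and the caspase gene Strica were higher by 1.70, 1.22 and 0.84, although Strica did not pass with median scaling (0.62). Leaving out dTIP60WT replicate 1, 3 insulin, 3 autophagy and 0 cell death genes passed higher, and without replicate 2 the numbers were 3, 2 and 0. Median scaling gave 6 autophagy genes higher and 1 lower.

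Sugar and lipid genes went both ways, as did all genes, of which 14.7% passed higher and 14.2% lower. Of 24 trehalose, glycogen and sugar genes 6 passed higher and 3 lower. Treh, which splits the blood sugar trehalose, had 1252 and 1430.0 in dTIP60E431Q, against 470 and 573 in dTIP60WT (log2 difference 1.37, SE 0.178, adjusted p = 0.0119), and the maltase genes Mal-A6 and Mal-A1 were higher by 1.48 and 1.11. The glycogen branching enzyme gene AGBE had 943 and 940 in dTIP60E431Q, against 2230.1 and 2286 in dTIP60WT (log2 difference -1.26, SE 0.113, adjusted p = 0.00651). Of 23 lipid synthesis genes 5 passed higher and 2 lower. FASN1, fatty acid synthase, had 4866 and 4430.5 in dTIP60E431Q, against 11461 and 10362 in dTIP60WT (log2 difference -1.23, SE 0.128, adjusted p = 0.00775), whereas Lpin (lipin), eas (ethanolamine kinase) and ifc (a ceramide desaturase) were higher by 1.18, 1.93 and 0.85. Of 29 lipase, lipid droplet and lipid transport genes 8 passed higher and 10 lower. fabp, a fatty acid binding protein and one of the brightest genes that fell, had 4469 and 4064 in dTIP60E431Q, against 12354 and 12820.2 in dTIP60WT (log2 difference -1.56, SE 0.12, adjusted p = 0.00572). Npc2h, of a sterol-binding family, and the lipase gene mag were lower, at -2.62 and -1.53. In the other direction Lip3, a lipase gene, had 362 and 537 in dTIP60E431Q, against 34.9 and 36.5 in dTIP60WT (log2 difference 3.63, SE 0.224, adjusted p = 0.0051), and the lipocalin gene NLaz was higher by 2.09. None of the sugar or lipid synthesis genes passed without dTIP60WT replicate 1 or 2, and of the lipase list 2 higher and 3 lower passed without replicate 1 and 2 higher and 4 lower without replicate 2.

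Hormone genes that time moults gave a mixed picture. Ecdysone is the steroid that starts each moult, and juvenile hormone decides whether the next stage is larval. Of 20 ecdysone response genes 6 passed higher and 2 lower. br (broad), a factor of the onset of metamorphosis, had 125 and 117 in dTIP60E431Q, against 367 and 354 in dTIP60WT (log2 difference -1.57, SE 0.22, adjusted p = 0.0136). The receptor subunit gene usp, at -0.98, was the other that fell, and ftz-f1, a competence factor between ecdysone pulses, was higher by 1.80, both named after their values were seen. The inducible genes ImpL1 and Eip63E were higher by 2.33 and 1.02. The nuclear receptor gene Hr96, named after its values were seen, had 525 and 386 in dTIP60E431Q, against 220 and 203 in dTIP60WT (log2 difference 1.09, SE 0.189, adjusted p = 0.022), and Hr3, chosen in the same way, had 39.7 and 14.4 in dTIP60E431Q, against 5.83 and 4.41 in dTIP60WT without passing (log2 difference 2.24, SE 0.547, adjusted p = 0.0504). Of 18 ecdysone synthesis and clearance genes 2 passed higher and 2 lower, against 14.7% and 14.2% over all genes. Cyp18a1, which degrades ecdysteroids, had 876 and 1074 in dTIP60E431Q, against 266 and 164 in dTIP60WT (log2 difference 2.21, SE 0.363, adjusted p = 0.0195), and vvl, a factor that acts upstream of the pathway's genes, was higher by 1.13 but did not pass with median scaling (0.92). sro (shroud), an enzyme of ecdysone synthesis, had 28.9 and 23.3 in dTIP60E431Q, against 76 and 74.5 in dTIP60WT (log2 difference -1.53, SE 0.24, adjusted p = 0.0175), and woc was lower, at -1.03. Of 11 juvenile hormone genes 4 passed higher and 1 lower. Met, a receptor of the hormone, had 30.1 and 40.4 in dTIP60E431Q, against 12.1 and 12.5 in dTIP60WT and 29.4 and 28.2 in the Control (log2 difference 1.5, SE 0.181, adjusted p = 0.0102), so that the dTIP60WT pools were the low ones. JhI-26 was higher by 1.77 and the epoxide hydrolase gene Jheh2 lower, at -1.16. Beside usp and ftz-f1, 11 genes here passed, of which 3 and 5 passed without dTIP60E431Q replicate 1 and 2, and 0 and 1 without dTIP60WT replicate 1 and 2.

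Synaptic genes were higher or did not pass. Of 43 synapse and pan-neuronal genes 15 passed higher and none lower, with a median of 0.60, and median scaling left 9 higher with a median of 0.39. Snap25, a SNARE of synaptic vesicle fusion, had 183 and 166 in dTIP60E431Q, against 83.3 and 67.4 in dTIP60WT (log2 difference 1.22, SE 0.159, adjusted p = 0.0119). cpx (complexin) had 375 and 365 in dTIP60E431Q, against 196 and 165 in dTIP60WT (log2 difference 1.04, SE 0.14, adjusted p = 0.0127), and nAChRalpha4, an acetylcholine receptor subunit, was higher by 1.38. DAT, the dopamine transporter, had 66.2 and 110 in dTIP60E431Q, against 15.2 and 7.76 in dTIP60WT (log2 difference 2.97, SE 0.449, adjusted p = 0.0162). Markers of all neurons did not pass: elav had 269 and 289 in dTIP60E431Q, against 280 and 232 in dTIP60WT, and brp 81.2 and 62.1 in dTIP60E431Q, against 90.3 and 78.4 in dTIP60WT. Of 36 neuropeptide genes 11 passed higher and 1 lower, with a median of 0.59. CCHa1, made by the gut and brain, had 560 and 485 in dTIP60E431Q, against 17.2 and 22.9 in dTIP60WT (log2 difference 4.72, SE 0.295, adjusted p = 0.0051), and sNPF and Dh31 were higher by 1.42 and 1.58. The lower one, Nplp4, had 1261 and 1926 in dTIP60E431Q, against 9645 and 9567 in dTIP60WT (log2 difference -2.62, SE 0.234, adjusted p = 0.00651). Of 17 glial genes 4 passed higher and 2 lower, against 14.7% and 14.2% over all genes. Among them alrm, an astrocyte gene, was at 1.28, loco at 1.01 and gcm2, which was dim, at -1.82 (-0.01 with the floor, where it did not pass). The gene repo, which marks most glia, had 76.1 and 69.5 in dTIP60E431Q, against 80.4 and 57.9 in dTIP60WT. The synapse list was thin on single arrays, since 1 or 2 genes passed higher without any 1 transgene array, with medians from 0.48 to 0.64. The neuropeptide list passed with 2 to 5 higher in those fits.

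Muscle, gut, blood cell and cell cycle genes were counted in the same way. Of 26 muscle genes 10 passed lower and none higher, with a median of -0.37. Mp20, a muscle protein of the calponin family, had 5977 and 6042 in dTIP60E431Q, against 12862 and 12803 in dTIP60WT (log2 difference -1.09, SE 0.113, adjusted p = 0.00774), and Act87E, a muscle actin, had 2747 and 3862 in dTIP60E431Q, against 11954 and 11439 in dTIP60WT (log2 difference -1.84, SE 0.199, adjusted p = 0.00836). The LIM protein genes Mlp84B and Mlp60A were lower, at -1.02 and -0.97. No muscle gene passed without dTIP60WT replicate 1 or 2, and quantile normalization left 6 lower and 1 higher. Of 45 midgut digestive genes 8 passed higher and 6 lower, near the 14.7% and 14.2% over all genes. alphaTry, a trypsin gene, had 2558 and 3152 in dTIP60E431Q, against 389 and 447 in dTIP60WT (log2 difference 2.77, SE 0.164, adjusted p = 0.00506), while thetaTry and Try29F were lower, at -1.89 and -1.88. Try29F had 25.4 and 23.3 in Control pools, so that dTIP60WT was the high genotype for this gene. None of 25 hemocyte and basement membrane genes passed in limma (2 lower at an unadjusted p below 0.05, 2 lower with median scaling, 3 lower with trend and robust options), and 1 had an unadjusted p below 0.05 in the methods' t-test, and the blood cell markers Hml, NimC1, srp and He had differences of 0.27, 0.17, 0.01 and -0.43. The nearest were ush at -0.59 (adjusted p = 0.0501) and the prophenoloxidase genes PPO1 and PPO2 at -0.69 and -0.48. Of 45 replication and cell cycle genes 13 passed lower and 2 higher, with a median of -0.45, and 24 and 1 did so under median scaling. PCNA, the replication clamp, had 176 and 183 in dTIP60E431Q, against 560 and 575 in dTIP60WT (log2 difference -1.66, SE 0.113, adjusted p = 0.00536), and the licensing factor genes Cdc6 and Mcm10 and the condensin gene Cap-G were lower, at -1.71, -1.48 and -1.39. Without dTIP60WT replicate 1 and 2, 2 and 4 of them passed lower.

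Chemosensory families had passing members in both directions, at shares near or below those over all genes. Of 47 odorant-binding protein genes 7 passed higher and 6 lower, near the 14.7% and 14.2% over all genes. Obp50e had 778 and 622 in dTIP60E431Q, against 9.26 and 8.45 in dTIP60WT (log2 difference 6.30, SE 0.253, adjusted p = 0.00472), and the much brighter Obp56d had 8268 and 11160.4 in dTIP60E431Q, against 1813 and 1896 in dTIP60WT (log2 difference 2.37, SE 0.269, adjusted p = 0.00919). Obp56e and Obp83g were lower, at -2.23 and -1.50. Of 166 odorant, gustatory and ionotropic receptor genes 4 passed higher and 7 lower, against 14.7% and 14.2% over all genes. Ir56b, an ionotropic receptor, had 25 and 52.3 in dTIP60E431Q, against 1.29 and 1.3 in dTIP60WT (log2 difference 4.80, SE 0.397, adjusted p = 0.00592). The dTIP60WT values were below the floor of 11.48, the level under which the dimmest 20% of values lie, and with values raised to that floor the difference was 1.66 (adjusted p = 0.0578). Gr63a, part of the carbon dioxide receptor, had 19.4 and 19.8 in dTIP60E431Q, against 7.21 and 5.23 in dTIP60WT (log2 difference 1.67, SE 0.24, adjusted p = 0.0144), and Gr59e and Gr58b were lower, at -1.67 and -1.72 at intensities of at most 45.9 on any array of either transgene. With the floor Gr63a was at 0.77, and Gr58b was at -0.03 and did not pass. No receptor gene passed without dTIP60WT replicate 1, and 2 passed higher without replicate 2.

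Among called genes outside the lists, CG4998 rose most, with 5581 and 6618 in dTIP60E431Q, against 20.9 and 48.8 in dTIP60WT (log2 difference 7.57, SE 1.07, adjusted p = 0.014). CG7406, CG12523, CG15731, CG14851 and CG33263 were higher by 7.51, 7.40, 6.89, 6.56 and 6.54, all with dTIP60WT values at or below 22.7, so that these sizes rest on dim arrays, and CG12523, CG14851 and CG33263 did not pass with trend and robust options (adjusted p of 0.0682 to 0.0821). The brightest rise was Arc1, a gene with a retroviral-like capsid domain that acts at synapses, with 17150.4 and 16641 in dTIP60E431Q, against 7985 and 7549.5 in dTIP60WT (log2 difference 1.12, SE 0.114, adjusted p = 0.00758). CG15784 had 10221 and 8857 in dTIP60E431Q, against 381 and 343 in dTIP60WT (log2 difference 4.72, SE 0.236, adjusted p = 0.00506). Its Control pools lay between, at 1117 and 1658, so that dTIP60WT was also below the Control, and the study lists this gene as misregulated by both transgenes. CG31789 had 9021 and 8918 in dTIP60E431Q, against 3053 and 3020.5 in dTIP60WT (log2 difference 1.56, SE 0.116, adjusted p = 0.00569). CG13679 and CG13069 were higher by 4.13 and 2.75, although CG13679 did not pass with the floor, median scaling or trend and robust options (adjusted p of 0.0501 to 0.0939). The rises with the smallest p had close duplicates. CG8620 had 1507 and 1870.3 in dTIP60E431Q, against 34.6 and 32.2 in dTIP60WT (log2 difference 5.65, SE 0.161, adjusted p = 0.00417), CG34165 had 3166 and 3164 in dTIP60E431Q, against 116 and 106 in dTIP60WT (log2 difference 4.83, SE 0.17, adjusted p = 0.00435), and CG7294 and CG31104 were higher by 3.97 and 4.63. Of these 15 genes 6 and 6 passed without dTIP60WT replicate 1 and 2, and 7 and 8 without dTIP60E431Q replicate 1 and 2.

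Calls were found on every chromosome arm and at every level of intensity. Among genes on each chromosome arm, the share called higher was 8.81% on X, 9.84% on 2L, 11.7% on 2R, 11.2% on 3L and 11% on 3R, beside 10.5% over all genes. The share called lower was 6.41% on X, 6.53% on 2L, 6.76% on 2R, 6.95% on 3L and 7.73% on 3R, beside 6.92% over all genes. Chromosome 4, the smallest, had 3 higher and 3 lower of 65 genes. The dTIP60E431Q insertion lies on chromosome 3 and the dTIP60WT insertion on chromosome 2. When probe sets were sorted by mean level into 5 equal bins, 3.09% were called higher and 2.4% lower in the dimmest bin, and 12.3% and 16.1% in the brightest. Of the probe sets without a gene symbol 8.75% were called, and of those with 1 symbol 16.8%. In the RefSeq order of genes, 30 runs of at least 3 neighbouring measured genes were called higher, with 98 genes, and 9 runs were called lower, with 28 genes. The longest, of 5 genes each, were CG34005, CG14495, Muc55B, CG10911 and CG10912 on 2R, with differences from 1.32 to 2.80, and Edg91, CG34281, CG14327, CG14324 and CG14326 on 3R, with 2.03 to 6.34. Of 1094 genes with at least 2 probe sets, 7 had probe sets called in opposite directions: Ank2, CG42784, CG5326, CG6262, Gfrl, RFeSP and koi. For Ank2, the ankyrin of axons, 1 probe set had 241 and 254 in dTIP60E431Q, against 133 and 84.3 in dTIP60WT, and another 35.9 and 36.4 in dTIP60E431Q, against 78.3 and 86.5 in dTIP60WT. These runs and genes were named after their values were seen.

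Duplicate pools of 1 genotype also differed from each other in some genes. The median gap between duplicates was 0.256 on the log2 scale for dTIP60E431Q and 0.233 for dTIP60WT, and 2100 and 2219 probe sets (11.2% and 11.8%) were at least 2-fold apart. Of the called probe sets, 98 had dTIP60E431Q duplicates and 83 dTIP60WT duplicates that far apart. In dTIP60E431Q, Osi18 had 777 and 10.2, Osi20 had 2096 and 52.2 and CG2961 had 984 and 38.9 on replicates 1 and 2, so that replicate 1 was high for all 3. The reverse held for CG14422, at 17.2 and 972, and CG31091, at 33.6 and 1347. In dTIP60WT, Fbp1, a fat body receptor for storage protein, had 5.01 and 1015, and CG17105 and CG34227 had 61.6 and 2745 and 251 and 5501. Salivary glue genes are switched on late in the third instar, and Sgs3, Sgs7 and Sgs8 split the same pools. Sgs3 had 1.93 and 343, Sgs7 6.46 and 434, and Sgs8 1.67 and 357 in dTIP60WT, while no dTIP60E431Q pool exceeded 10.9 for any of them. In the Control the first replicate was the high one for these 3, with Sgs3 at 201 and 8.31. The glue genes Sgs1, Sgs4 and Sgs5 were not split that far. Sgs4 had 206 and 171 in dTIP60E431Q, against 162 and 223 in dTIP60WT. Sgs1 had 33.69 and 29.15 against 44.19 and 69.27, and Sgs5 14.02 and 5.93 against 14.23 and 23.32, in the same order. TwdlB and TwdlM had dTIP60WT values of 53.1 and 696 and 246 and 1188 under dTIP60E431Q values of 9028 and 10479.6 and 10278 and 12554, and neither passed (adjusted p = 0.11 and 0.0911). Late gland genes that passed were all lower, at a share near the 14.2% lower over all genes. The largest difference of that list, 5.81, did not pass. In other settings members also passed higher: 1 with only the 4 transgene arrays fitted, the floor, the filter or trend and robust options, and 2 with the pseudocount. ng3 had 449 and 1429 in dTIP60E431Q, against 5643 and 6014 in dTIP60WT (log2 difference -2.86, SE 0.577, adjusted p = 0.0319) but did not pass with trend and robust options, with the replicate block or with only the 4 transgene arrays fitted (adjusted p of 0.0561 to 0.0706), and ng1 and Pig1 were lower, at -1.62 and -1.21, 3 of 23 genes of that list with none higher. None of the late gland genes passed lower without dTIP60WT replicate 1 or 2, and 4 did so without either dTIP60E431Q array.

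**Figure D5:**
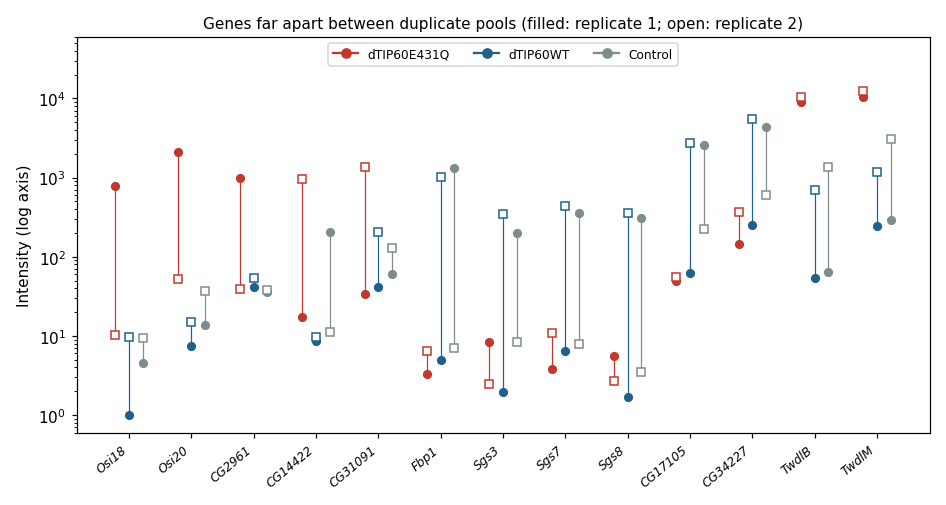
Intensity (log axis) of 13 genes whose duplicate pools were far apart, with dTIP60E431Q (red) left of dTIP60WT (blue) and Control (grey); filled circles are replicate 1 and open squares replicate 2. Fbp1, Sgs3, Sgs7 and Sgs8 were high on dTIP60WT replicate 2 and Control replicate 1 and stayed at or below 10.9 in both dTIP60E431Q pools.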

How the data were processed

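RNA of pooled whole larvae was hybridised to Affymetrix Drosophila Genome 2.0 arrays, 1 pool per array. The authors normalized the arrays and computed model-based expression values in dChip, and the deposited values are linear intensities from 0.69 to 18115.15, of which 1.369% are exactly 1. From these log2(intensity) was computed here, with no pseudocount or filter and 183 manufacturer's control probe sets left out, and limma 3.58.1 in R 4.3.3 fitted all 6 arrays with 1 mean per genotype, which left 3 residual degrees of freedom. P-values were adjusted by the Benjamini-Hochberg method over 18769 probe sets. Names came from the platform annotation, and matching to RefSeq, which gave the positions, changed no symbol. Of the probe sets 13647 had 1 symbol, for 11982 genes, 402 had several and 4720 none. Gene lists used the brightest probe set of a gene with 1 symbol, and near-identical paralogs may share probes. Genes named were, per list, up to 4 with the smallest p, and outside lists the 10 largest, 8 brightest and 6 smallest-p called genes in each direction whose brighter genotype was above the median, and 5 per genotype with the widest duplicate gap; other genes, such as CecB, IM33 and yellow-e, were named after their values were seen. The comparison, the members and the lists were chosen with earlier results of these data known. Alternatives changed the model (limma's trend and robust options, a replicate block), the scaling, the threshold and the arrays, set a floor at the 20th percentile, added a pseudocount of 16 or filtered out those dimmer than the 40th percentile of mean level. The number of arrays limits the precision.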

Additional observations from a re-analysis of the deposited data

Results flagged for a closer look

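A control probe set outside the comparison carried signal above the Control arrays. The probe set for the 3′ end of 18S ribosomal RNA had intensities of 4256.0 and 4104.6 in dTIP60E431Q, against 1566.5 and 1489.6 in dTIP60WT and 1862.9 and 1678.7 in the Control. The probe set for the 5′ end of the same RNA did not separate the genotypes, with 2309.2 and 1900.9 in dTIP60E431Q, against 2044.8 and 2513.2 in dTIP60WT.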

How the results depend on the processing

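The 2783 calls became 1784 lower and 1237 higher with median scaling. Without the fold threshold 4498 passed, 2204 of them lower, and with a fold of at least 4 there were 856, 624 higher and 232 lower. The methods' t-test called 1553 at the study's p and fold thresholds, 752 of them higher, without the study's further filter on the confidence bound of the fold. After Benjamini-Hochberg adjustment it called 0, 0 and 0 (all, higher, lower). Its unadjusted p was below 0.05 for 3182 probe sets, and limma's for 7065. Leaving out 1 array gave 661 to 2470 calls in all, 388 to 1450 higher and 273 to 1020 lower. For Tip60 the difference was 0.80 to 0.95, and it no longer passed without any 1 transgene array. Same-numbered arrays did not deviate together (correlations from -0.0125 to -0.00735), and with the replicate block there were 2412 calls, 1417 higher and 995 lower. Signs turned for RpL32 (0.10 with quantile normalization), tra (-0.09 with median scaling and -0.02 with quantile normalization), CG31091 (-1.45 without dTIP60E431Q replicate 2, 3.87 without replicate 1) and CG2961 (-0.27 without dTIP60E431Q replicate 1, 4.39 without replicate 2), none of which had passed. The cause of these shifts was not tested. Of 243 other named genes, 125 kept their side of the threshold without dTIP60WT replicate 1, 135 without replicate 2, and 177 and 180 without dTIP60E431Q replicate 1 and 2. Promoter sequences were not analysed here.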

Other observations

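Cytosolic chaperones and antioxidant genes were not described above. Of 19 heat shock and chaperonin genes 10 passed lower and 1 higher in limma, with a median difference of -0.58. The chaperonin subunit genes CCT3 and CCT7, which help actin and tubulin fold, had 749 and 840, and 698 and 773, in dTIP60E431Q, against 1583 and 1491, and 1502 and 1395, in dTIP60WT. Hsp68, a stress-inducible Hsp70 relative, had 162 and 111 in dTIP60E431Q, against 595 and 557 in dTIP60WT. The 1 higher member was the small heat shock gene Hsp26, with 1945 and 1758 in dTIP60E431Q, against 337 and 468 in dTIP60WT (log2 difference 2.22, adjusted p = 0.00754). Without either dTIP60WT array 1 gene of that list passed higher and 0 lower.

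Of 20 antioxidant, ferritin and metallothionein genes 1 passed higher and 3 lower, against 14.7% and 14.2% over all genes. The antioxidant enzymes of the mitochondrion were among those that fell. Prx3, a peroxiredoxin, had 585 and 553 in dTIP60E431Q, against 1961 and 2029 in dTIP60WT, and Sod2, the manganese superoxide dismutase, had 626 and 613 in dTIP60E431Q, against 1781 and 1715 in dTIP60WT. Of 9 circadian clock genes 1 passed higher and none lower, against 14.7% and 14.2% over all genes. It was vri, a repressor within the clock, with 117 and 141 in dTIP60E431Q, against 17.9 and 23.3 in dTIP60WT (log2 difference 2.65). The yolk protein gene Yp3 had 11.8 and 32.9 in dTIP60E431Q, against 276 and 238 in dTIP60WT and 529 and 387 in the Control, while Yp1 had 11.04 and 12.78 in dTIP60E431Q, against 14.89 and 15.04 in dTIP60WT.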
